A study of Mus musculus with 4 samples.

Results

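The paternally methylated imprinting control regions of the mouse, with the genes beside them, were followed from induced pluripotent stem cells to dopaminergic (DA) neurons by reduced representation bisulfite sequencing (RRBS), which reads the methylation of CpGs close to MspI cut sites. They were taken as 5 windows set by position in the mm9 build: the H19 gene and control region (chr7:149761000-149770000), Dlk1 (chr12:110690000-110702000), the intergenic region between Dlk1 and Meg3 (chr12:110764000-110770000), the Meg3 promoter (chr12:110778000-110782000) and the Rasgrf1 region (chr9:89765000-89776000). Every position with at least 5 calls in a library was kept, a call being the methylated or unmethylated state of 1 read at that position, and each strand of a CpG counted as a position of its own. This left 66 of 959847 positions in iPSCs, 107 of 1393990 in NESTIN-GFP precursors, 72 of 909200 in iPSC-DA neurons and 67 of 904699 in mdDA neurons. No annotation of mm9 was used, so the names of pieces inside the windows rest on position alone except where a promoter could be matched.

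The study asked how far DA neurons made in vitro resemble their embryonic counterparts, and it had 4 libraries, 1 for each condition. The iPSCs, labelled Pitx3 Gfp/+, had been reprogrammed from embryonic fibroblasts with retroviral factors, and which clone was sequenced is not given in the sources used here. The iPSC-DA neurons, also Pitx3 Gfp/+, had been grown from such cells for 4 weeks on a stromal feeder layer and sorted by their GFP, which marks cells that express the DA transcription factor Pitx3. The mdDA neurons were primary Pitx3 Gfp/+ cells of the mesodiencephalon at E14.5, sorted in the same way. The NESTIN-GFP precursors carried another reporter, Nestin Gfp/+, and so came from another iPSC line, collected at day 14 of differentiation; their label calls them neurons, and the study's name is used here. All 4 libraries thus came from mice with a Gfp reporter allele, and none from a line without a reporter.

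Imprinted genes are expressed from the copy inherited from 1 parent. At the control regions studied here the paternal copy is methylated and the maternal copy is not, so that cells with both copies intact give a level near 50%. The unmethylated maternal H19 control region binds the insulator protein CTCF, which keeps enhancers away from the growth factor gene Igf2 and leaves them to the non-coding RNA H19. The intergenic region between Dlk1 and Meg3 sets the expression of the paternal genes Dlk1, Rtl1 and Dio3 and of the maternal non-coding RNA Meg3, and the methylated Rasgrf1 region allows expression of the paternal Rasgrf1, which encodes a guanine nucleotide exchange factor. The H19 and Meg3 promoters take on paternal methylation later in development than the control regions do. The reads do not tell the copies apart, so a level of 50% from a methylated and an unmethylated copy in every cell cannot be told apart from full methylation in some of the cells.

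Only 1 promoter in the windows could be placed on the deposited positions. For the Meg3 promoter of RefSeq (GRCm38.p6), 9 of 9 deposited positions inside it fell on CpGs when the sequence was slid along the window, and at any other placement with as many positions at most 55.6% did. The sequences below are the 250 bases before the RefSeq start of Meg3 and, as comparators from the same imprinted loci that lie outside the windows, of Dio3 and of an Igf2 promoter. For these comparators 39 of 39 and 20 of 20 positions fell on CpGs. They are shown because they differ in how many CpGs RRBS can reach and in how methylated those were, and capitals mark the CpGs.
Meg3 (chr12:109540746-109540995, GRCm38.p6, + strand): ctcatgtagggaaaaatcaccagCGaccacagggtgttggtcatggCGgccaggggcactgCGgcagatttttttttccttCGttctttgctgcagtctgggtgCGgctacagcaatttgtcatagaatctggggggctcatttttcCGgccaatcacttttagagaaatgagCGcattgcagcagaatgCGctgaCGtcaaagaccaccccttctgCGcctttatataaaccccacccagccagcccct
Dio3 (chr12:110278980-110279229, GRCm38.p6, + strand): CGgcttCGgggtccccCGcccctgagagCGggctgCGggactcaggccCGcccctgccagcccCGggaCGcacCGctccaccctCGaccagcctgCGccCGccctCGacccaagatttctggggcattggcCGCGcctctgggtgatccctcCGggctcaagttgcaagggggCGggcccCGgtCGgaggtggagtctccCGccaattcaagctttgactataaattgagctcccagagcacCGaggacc
Igf2 (chr7:142658805-142659054, GRCm38.p6, − strand): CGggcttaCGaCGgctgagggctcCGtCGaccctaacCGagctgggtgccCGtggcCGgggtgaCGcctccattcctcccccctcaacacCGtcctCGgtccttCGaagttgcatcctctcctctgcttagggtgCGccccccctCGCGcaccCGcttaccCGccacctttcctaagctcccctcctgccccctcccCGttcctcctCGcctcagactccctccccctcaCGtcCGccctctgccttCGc
The Meg3 sequence holds 10 CpGs and 1 CCGG, the MspI site, which reads the same on both strands and is present in 47.1% of the 32851 RefSeq promoters cut to this length. The Dio3 sequence holds 21 CpGs and 3 CCGG, and the Igf2 sequence 22 CpGs and 1 CCGG. In the Meg3 sequence 6 CpGs were listed in any library, with 0 of 6 calls methylated in iPSCs, 25 of 34 in precursors, 7 of 7 in iPSC-DA neurons and 1 of 3 in mdDA neurons. Too few calls were therefore available to compare the DA libraries at the Meg3 start itself. The Dio3 sequence, by contrast, had a level of 3.81% in iPSCs (1417 calls), 26.7% in precursors (682 calls), 45.2% in iPSC-DA neurons (1829 calls) and 4.72% in mdDA neurons (2096 calls). The Igf2 sequence gave 4.92%, 9.96%, 47.5% and 6.23% in the same order. The precursor values rest in part on positions that the other libraries do not list. The Dlk1 promoter of RefSeq was not placed, since at best 3 of 5 positions fell on its CpGs, and the Rasgrf1 promoter had only 6 positions.

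The precursor library stood apart in depth and in the positions it covered. Over all kept positions of the genome its median was 14 calls, against 58, 65 and 58 in iPSCs, iPSC-DA and mdDA neurons. Of the 136 window positions with at least 5 calls in any library, 63 reached this in the precursors alone, 43 in all 4 libraries and 66 in the other 3 libraries. Pairs of positions 1 bp apart, which include the strands of a CpG, differed by more than 50 percentage points in 5 of 32 pairs in precursors and in none of the 9 pairs of each other library. Precursors were therefore tested against the other libraries only at shared positions, and their levels over other positions are given as descriptions. Calls per position on chromosomes 7, 9 and 12 showed little shift between the DA libraries, with log2 ratios of iPSC-DA to mdDA neurons from -0.028 to -0.011 against the median autosome. There are no replicates, so the tests compare these libraries and not the conditions. Neighbouring calls share reads and reads may be PCR copies, which makes the p-values too small, and the 95% intervals given (Wilson) cover counting error only.

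Few windows were near 50%, taken as 40% to 60%, in any library. Of the windows with a kept position, 0 of 3 were near 50% in iPSCs, 1 of 5 in precursors (Dlk1), 1 of 3 in iPSC-DA neurons (H19) and 1 of 3 in mdDA neurons (Meg3 promoter). The window named for iPSC-DA neurons depends on pooling calls. As an unweighted mean of positions they were at 66.1% in H19 and at 41.3% in Dlk1. At H19, 2 of 8 positions lay from 40% to 60% in iPSC-DA neurons, and 5 of 9 in mdDA neurons. The H19 result of mdDA neurons depends on the piece taken. Their whole window was at 64.3%, and it includes chr7:149761700 and chr7:149761722 inside the gene, each with 44 of 44 calls methylated. The promoter side (chr7:149764101-149765900) was at 52.3% in mdDA neurons and at 53.1% in iPSC-DA neurons. The single positions gave a closer view. In iPSCs 3 of 66 positions, or 4.55%, lay from 40% to 60%, against 5.60% of all positions of that library. In precursors 4 of 107 did (3.74%, against 4.48% of all). The DA libraries had larger shares, with 16 of 72 positions in iPSC-DA neurons (22.2%, against 11.9% of all) and 8 of 67 in mdDA neurons (11.9%, against 3.64% of all). In iPSCs and mdDA neurons most positions were below 20%, with 54 of 66 and 48 of 67, as were 67.6% and 62.4% of all positions of these libraries. In precursors 56 of 107 positions were at 80% or above, as were 47.3% of all.

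**Figure D1:**
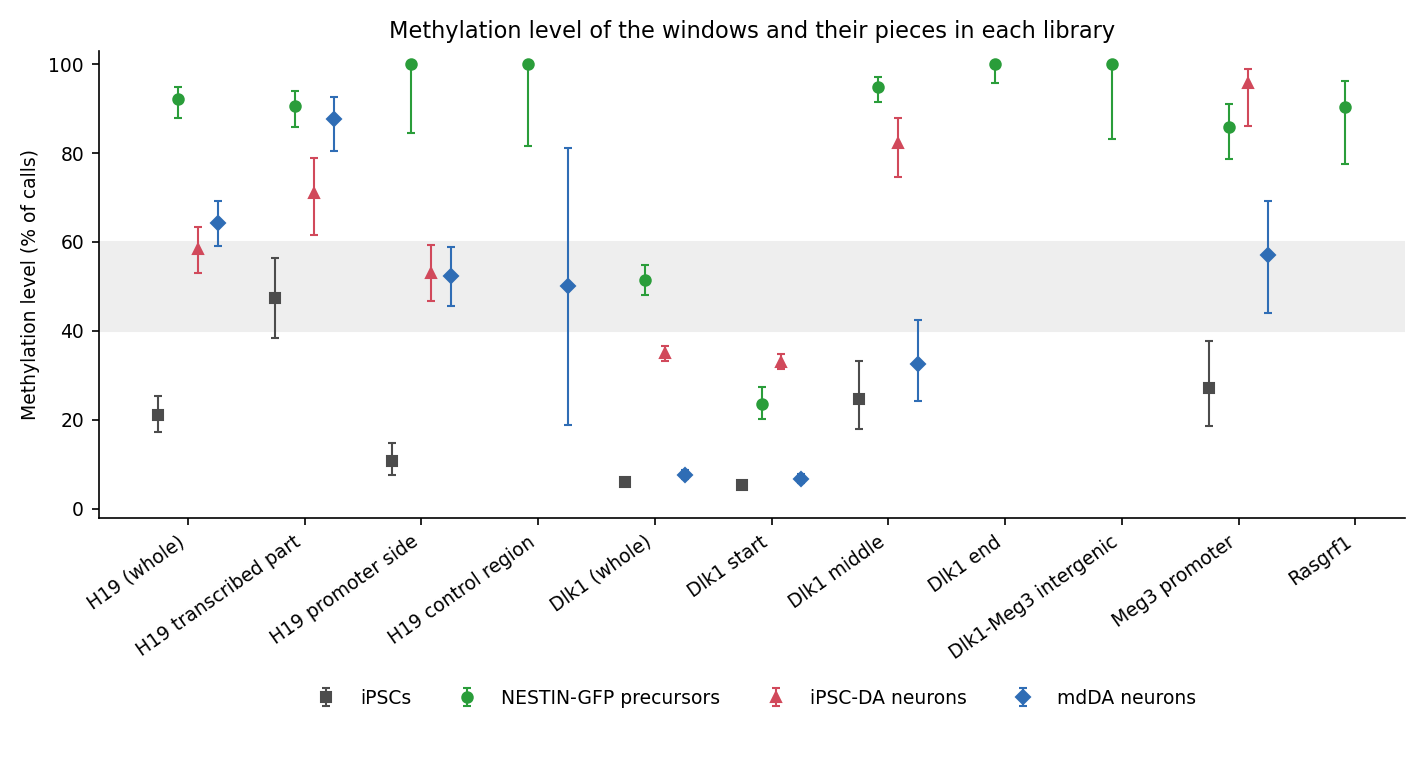
Methylation level in percent of calls for the windows and their pieces, in 4 libraries, over positions with at least 5 calls in that library. Bars are Wilson 95% intervals for counting error, the grey band marks 40% to 60%, and a missing symbol means that no position had 5 calls. In the H19 window iPSCs were at 21.0% and the DA libraries at 58.4% and 64.3%, and the intergenic and Rasgrf1 windows have a value in precursors alone. Each value of the H19 control region rests on 1 position.

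The H19 window had a low level in iPSCs and an intermediate level in both DA libraries. Its level was 21.0% in iPSCs (84 of 400 calls, 8 positions), 92.1% in precursors (221 of 240 calls, 13 positions), 58.4% in iPSC-DA neurons (199 of 341 calls, 8 positions) and 64.3% in mdDA neurons (216 of 336 calls, 9 positions). The precursors shared 2 positions with the others, so that their window level comes mostly from other CpGs.

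The intermediate level lay in a stretch of 6 positions (chr7:149764070-149764148), on both sides of the border drawn between transcribed part and promoter. Its level was 10.4% in iPSCs (35 of 338 calls, 95% interval 7.54% to 14.1%), 55.2% in iPSC-DA neurons (144 of 261 calls, 49.1% to 61.1%) and 51.7% in mdDA neurons (125 of 242 calls, 45.4% to 57.9%). The intervals of the DA libraries overlapped and the interval of iPSCs lay below both. iPSC-DA neurons were 44.8 percentage points above iPSCs (Fisher's exact test, Benjamini-Hochberg adjusted p = 1.4e-32), and mdDA neurons 41.3 points above them (Fisher's exact test, adjusted p = 3.1e-27). The DA libraries differed from each other by 3.52 points (Fisher's exact test, adjusted p = 0.610). That closeness depends on pooling calls. As an unweighted mean of positions the stretch was at 65.2% in iPSC-DA neurons and at 49.8% in mdDA neurons. This stretch was formed from the 3 libraries without precursors, a choice made after the coverage had been seen.

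Each of the 6 positions had a higher level in both DA libraries than in iPSCs, and the difference was called at 6 of 6 for iPSC-DA neurons, against 26.6% of all positions called higher, and at 3 of 6 for mdDA neurons, against 9.05%. At chr7:149764145, 7 of 100 calls were methylated in iPSCs, 39 of 88 in iPSC-DA neurons and 37 of 78 in mdDA neurons. At chr7:149764148, only 3 bp away, the counts were 17 of 100, 59 of 88 and 41 of 78. The position at chr7:149764110 had 3 of 64, 22 of 55 and 30 of 49. These well covered CpGs put mdDA neurons at 47.4% to 61.2% and iPSC-DA neurons between 22 of 55 and 59 of 88 calls. The remaining 3 positions had 24 to 25 calls in iPSCs and 10 to 13 in the DA libraries, and all 3 read 8 of 10 methylated in iPSC-DA neurons, at a depth where neighbouring calls come from the same few reads. In the precursors chr7:149764097, between them and still in the transcribed part, had 0 of 19 calls methylated, while 2 positions of the promoter side had 21 of 21.

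Inside the H19 gene the order of the libraries was different. At chr7:149761700 the methylated calls were 27 of 31 in iPSCs, 42 of 42 in precursors, 30 of 40 in iPSC-DA neurons and 44 of 44 in mdDA neurons. At chr7:149761722 they were 22 of 31, 42 of 42, 25 of 40 and 44 of 44. Both positions were fully methylated in precursors and mdDA neurons and partly methylated in iPSCs and iPSC-DA neurons. They lie close together and had the same number of calls in each library, so they are not separate observations. iPSC-DA neurons were lower than mdDA neurons by 25 and 37.5 percentage points (Fisher's exact test, adjusted p = 0.0017 and 2.0e-05), and lower than precursors by the same amounts (Fisher's exact test, adjusted p = 0.0041 and 9.7e-05). Between iPSC-DA neurons and iPSCs the differences of -12.1 and -8.47 points did not pass Fisher's exact test (adjusted p = 0.484 and 0.913).

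The control region of H19 itself, 4.9 to 7.5 kb from the window's start, was barely read. All listed calls there were 4 of 11 methylated in iPSCs, 23 of 42 in precursors, 3 of 6 in iPSC-DA neurons and 4 of 8 in mdDA neurons. At chr7:149767292 the counts were 1 of 4, 17 of 17, 1 of 4 and 3 of 6. In precursors this was the only position of the region with 5 calls. Their level of 100% there thus rests on 1 position, while all listed calls gave 54.8%. Whether this control region stayed near 50% could not be read at this depth, since in the DA libraries the intervals run from 18.8% to 81.2% and from 21.5% to 78.5%.

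**Figure D2:**
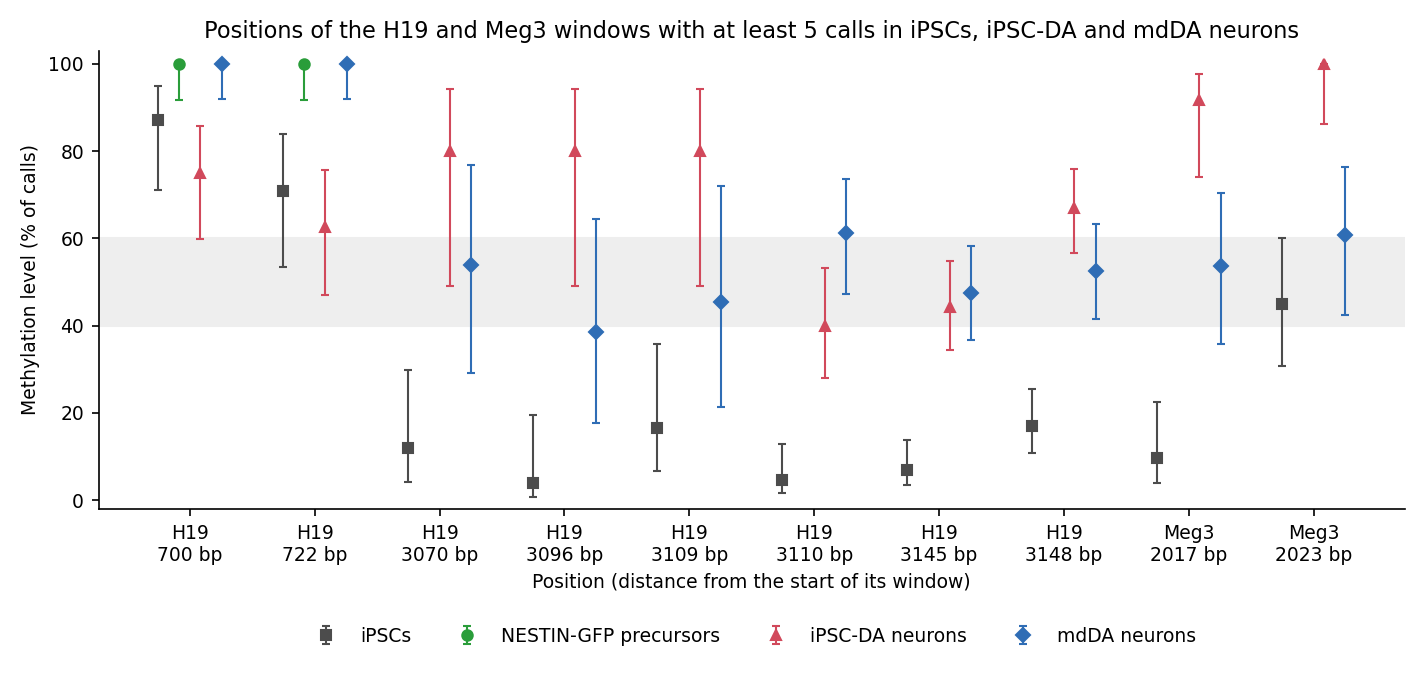
Methylation level in percent of calls at the 8 H19 and 2 Meg3 positions with at least 5 calls in iPSCs, iPSC-DA and mdDA neurons, ordered by distance from the start of the window. Bars are Wilson 95% intervals and the grey band marks 40% to 60%. At the 6 H19 positions of the stretch near the promoter iPSCs lie at 4% to 17% and mdDA neurons at 38.5% to 61.2%, and at both Meg3 positions iPSC-DA neurons lie above mdDA neurons.

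The Meg3 window was the 1 window where mdDA neurons were near 50% and iPSC-DA neurons were almost fully methylated. The 2 positions shared by these libraries lie 811 and 817 bp after the RefSeq start as placed above. At chr12:110780017 the methylated calls were 4 of 41 in iPSCs, 22 of 24 in iPSC-DA neurons and 15 of 28 in mdDA neurons. At chr12:110780023 they were 18 of 40, 24 of 24 and 17 of 28. Together they gave 27.2% in iPSCs (95% interval 18.7% to 37.7%), 95.8% in iPSC-DA neurons (86.0% to 98.8%) and 57.1% in mdDA neurons (44.1% to 69.2%). The 3 intervals did not overlap.

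iPSC-DA neurons exceeded mdDA neurons by 38.1 and 39.3 percentage points at the Meg3 positions (Fisher's exact test, adjusted p = 0.021 and 0.0021), and iPSCs by 81.9 and 55.0 points (Fisher's exact test, adjusted p = 2.8e-10 and 8.8e-06). mdDA neurons exceeded iPSCs by 43.8 points at the first position (Fisher's exact test, adjusted p = 0.0012), and by 15.7 points at the second, which did not pass (adjusted p = 0.775). Both positions are 6 bp apart, are read together and amount to little more than 1 observation. The precursors had no calls there, and at 11 other positions of the window they were at 86.0% (104 of 121 calls), where 2 positions 1 bp apart had 10 of 10 and 1 of 10 calls methylated.

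The Dlk1 window, at the gene for a transmembrane ligand related to the Notch ligands, carried most of the positions, and there the DA libraries parted. Its level was 5.98% in iPSCs (195 of 3259 calls, 56 positions), 51.5% in precursors (460 of 894 calls, 76 positions), 35% in iPSC-DA neurons (1084 of 3100 calls, 62 positions) and 7.64% in mdDA neurons (205 of 2682 calls, 56 positions). At the 41 positions with 5 calls in all 4 libraries the levels were 4.86%, 37.7%, 31.9% and 6.18% in the same order. The 51.5% of precursors was a mixture: of its 76 positions 25 had no methylated call, 27 were fully methylated and 2 lay from 40% to 60%. In iPSC-DA neurons 14 of 62 positions lay in that range. The best known paternally methylated part of Dlk1 lies towards the end of the gene, and most of the positions read here were at the start of the window. Start, middle and end name pieces of the window and not of the gene. Where the gene ends was not determined, so that part may lie in the middle piece or in the end piece.

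At the start of the Dlk1 window a dense group of CpGs gained methylation in iPSC-DA neurons. In the stretch of 32 positions covered by all 4 libraries (chr12:110691558-110691815) the level was 3.35% in iPSCs (77 of 2298 calls), 12.2% in precursors (45 of 368), 28.5% in iPSC-DA neurons (595 of 2088) and 4.51% in mdDA neurons (89 of 1972). iPSC-DA neurons were 24.0 percentage points above mdDA neurons (Fisher's exact test, adjusted p = 1.0e-100) and 25.1 points above iPSCs (Fisher's exact test, adjusted p = 3.9e-128). The precursors were 8.88 points above iPSCs, which is under the 20 points required for a call. mdDA neurons and iPSCs differed by 1.16 points (Fisher's exact test, adjusted p = 0.101). Low stretches elsewhere gained as well. Over 30114 stretches of the genome covered by all 4 libraries and below 20% in iPSCs, the quartiles in iPSC-DA neurons were 5.29% and 38.7%. The 28.5% of this stretch lies between them.

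The difference varied along the start of Dlk1. The position with the most calls, chr12:110691815, had 34 of 227 methylated in iPSCs, 0 of 14 in precursors, 60 of 236 in iPSC-DA neurons and 41 of 246 in mdDA neurons, so that the DA libraries differed by 8.76 points (Fisher's exact test, adjusted p = 0.071). From chr12:110691606 to chr12:110691643, iPSC-DA neurons had 0 to 6 methylated calls of 11 to 17 at each position, while from chr12:110691832 to chr12:110691845 they had 58 of 135, 67 of 138 and 84 of 138. mdDA neurons at these last 3 positions had 0 of 99, 7 of 102 and 41 of 102, and iPSCs 1 of 103, 5 of 105 and 34 of 104. The last of them, chr12:110691845, was thus above its neighbours in all 3 libraries.

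**Figure D3:**
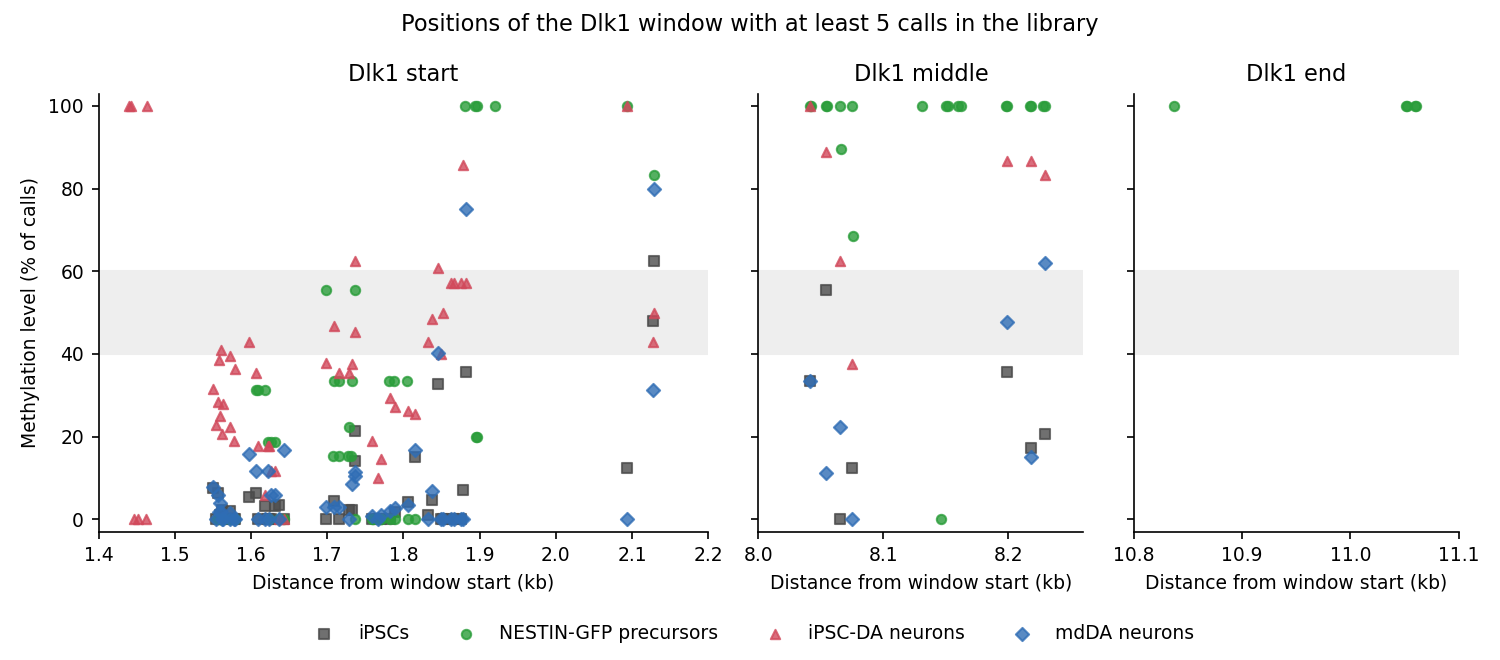
Methylation level in percent of calls at each position of the Dlk1 window with at least 5 calls in the library, by distance in kb from the window's start, in 3 panels for the start, middle and end of the window. The grey band marks 40% to 60%. At the start iPSC-DA neurons lie above iPSCs and mdDA neurons over most of the panel, in the middle precursors are mostly at 100%, and at the end only precursors have positions with 5 calls.

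A short stretch of 3 positions further on (chr12:110692094-110692129), formed without precursors, did not share this pattern. Its level was 42.1% in iPSCs (24 of 57 calls), 61.8% in iPSC-DA neurons (21 of 34) and 38.2% in mdDA neurons (13 of 34). No difference between these libraries passed the test (Fisher's exact test, adjusted p from 0.119 to 0.888).

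In the middle of the Dlk1 window the levels were higher in every library than in the dense group at its start. In the stretch of 4 positions at chr12:110698041-110698075 they were 25.7% in iPSCs (9 of 35 calls), 100% in precursors (82 of 82), 73.5% in iPSC-DA neurons (25 of 34) and 16.7% in mdDA neurons (6 of 36). In the stretch of 3 positions at chr12:110698199-110698229 they were 24.4% (21 of 86), 100% (58 of 58), 85.6% (77 of 90) and 41.9% (26 of 62). The precursors were fully methylated in both, and iPSC-DA neurons lay closer to them than to mdDA neurons. iPSC-DA neurons exceeded mdDA neurons by 56.9 and 43.6 percentage points (Fisher's exact test, adjusted p = 8.2e-06 and 7.4e-08). mdDA neurons differed from iPSCs by -9.05 and 17.5 points, and neither passed the test (adjusted p = 0.512 and 0.061). The position with the largest gap between the DA libraries among those with 20 calls in both, chr12:110698218, had 5 of 29, 20 of 20, 26 of 30 and 3 of 20 methylated calls in iPSCs, precursors, iPSC-DA and mdDA neurons. At the end of the window only precursors had positions with 5 calls, and all 88 calls at 5 positions were methylated.

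The intergenic control region between Dlk1 and Meg3 and the Rasgrf1 region were hardly read outside the precursors. In the intergenic window, all listed calls were 5 of 40 methylated in iPSCs (12.5%, 95% interval 5.46% to 26.1%), 28 of 28 in precursors (87.9% to 100%), 4 of 6 in iPSC-DA neurons (30% to 90.3%) and 8 of 10 in mdDA neurons (49.0% to 94.3%). These calls were spread over 28, 8, 5 and 6 positions, of which 2 in precursors reached 5 calls. The interval of iPSCs lay below that of every other library, but the positions were largely different ones. In the Rasgrf1 window the listed calls were 1 of 3 in iPSCs, 63 of 68 in precursors, 4 of 4 in iPSC-DA neurons and none in mdDA neurons. The 5 Rasgrf1 positions with 5 calls in precursors gave 90.2% (37 of 41 calls, 77.5% to 96.1%), which lies above 50%. In iPSCs the intergenic calls thus lay below 40%, at 28 positions with few calls each. Whether the DA libraries stayed near 50% at these control regions could not be read.

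Over the windows, most changes were gains in iPSC-DA neurons. A position was called when Fisher's exact test, adjusted over all positions of the genome, gave a p under 0.05 and the levels differed by 20 percentage points or more. Between iPSC-DA neurons and iPSCs, 43 of 66 positions were called and all were higher in iPSC-DA neurons, against 26.6% of all positions higher. They were 6 of 8 in H19, 35 of 56 in Dlk1 and 2 of 2 in Meg3. Of those in Dlk1, 30 lay in the dense group at the start of the window, where neighbouring calls share reads. The counts are therefore not counts of separate observations, and they describe mostly that group and not the control regions. Between iPSC-DA and mdDA neurons, 33 of 66 were called higher in iPSC-DA neurons, against 17.8% of all positions, and 2 lower, against 2.46%. The 33 were 31 in Dlk1, 27 of them at its start, and 2 in Meg3, and the 2 lower were the H19 positions inside the gene. The median difference over the 66 positions was 26.6 percentage points, against 0.667 over all positions.

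Between mdDA neurons and iPSCs, 5 of 66 positions were called, all higher in mdDA neurons, against 9.05% of all positions. They were 4 of 8 in H19 and 1 of 2 in Meg3. In Dlk1 0 of 56 were called, with 2 at an unadjusted p under 0.05. Between precursors and iPSCs, 14 of 43 positions were called higher, against 26.9% of all positions, 13 of them in Dlk1 and 1 in H19. The count fell to 6 with a minimum of 10 calls and to 4 with the deeper library thinned. Between iPSC-DA neurons and precursors, 3 of 43 were called lower, against 9.85% of all positions, and 0 higher, against 6.87%. This direction did not hold with neighbouring positions merged, which gave 5 higher and 2 lower. These 2 comparisons with precursors could be made at 2 positions of H19 and 41 of Dlk1 only.

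Stretches, runs of at least 3 positions with gaps under 100 bp, pool more calls per value. In the 3 stretches with all 4 libraries, all in Dlk1, 3 were called higher in iPSC-DA neurons than in iPSCs, against 37.5% of 53772 stretches of the genome, and 3 higher than in mdDA neurons, against 20.1%. The precursors were called above iPSCs in 2 of 3, against 43.3%, and iPSC-DA neurons below precursors in 1 of 3, against 18.1%, which turned to 1 higher and 0 lower with a minimum of 10 calls. mdDA neurons and iPSCs gave 0 of 3, against 25.2% in either direction. In the 5 stretches formed without precursors, which add the H19 stretch and 1 more in Dlk1, mdDA neurons were called above iPSCs in 1 of 5, the H19 stretch, against 22.6% of 58180 stretches. There iPSC-DA neurons were called above iPSCs in 4 of 5, against 37.3%, and above mdDA neurons in 3 of 5, against 19.6%.

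Stretches of the whole genome were grouped by their level in iPSCs. A start at 40% to 60% was seen in none of the 3 windows with a kept position in iPSCs. The H19 control region, the intergenic window and the Rasgrf1 window had no kept position in iPSCs, so their start could not be read. Of the stretches in the windows, only chr12:110692094-110692129 in Dlk1 started in that range, at 42.1%, and it was not covered by all 4 libraries. The transcribed part of H19 was at 47.3% in iPSCs, but 0 of its 4 positions lay in that range. Of 4217 stretches of the genome at 40% to 60% in iPSCs, 0.925% were still in that range in precursors, 6.71% in mdDA neurons and 9.86% in iPSC-DA neurons, and their median levels there were 95.2%, 89.7% and 86.2%. The H19 stretch and the stretch at the start of Dlk1 were below 20% in iPSCs, and the stretches in the middle of Dlk1 were in neither class. Of 31199 stretches of the 3 libraries below 20% in iPSCs, 1.67% lay at 40% to 60% in mdDA neurons and 14.4% in iPSC-DA neurons. Among 638195 positions with at least 20 calls in these 3 libraries, 3792 (0.594%) were below 20% in iPSCs and at 40% to 60% in mdDA neurons. They included chr7:149764145 and chr7:149764148 of H19 and chr12:110780017 of Meg3, but not chr7:149764110, at 61.2% in mdDA neurons. Of those 3792, 947 were also at 40% to 60% in iPSC-DA neurons. Among the named ones this held at chr7:149764145 (44.3%), but not at chr7:149764148 (67.0%) or chr12:110780017 (91.7%). The pattern was set with the H19 and Meg3 values known, so its share does not measure how rare these positions are.

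The partner genes of the same imprinted loci, placed by position like the windows, were measured in the same way. Igf2, which shares enhancers with H19, had 4.93% in iPSCs, 13.7% in precursors and 37.5% in iPSC-DA neurons, and mdDA neurons had 5.25%, at 96 positions covered in all 4 libraries. Dio3, which encodes a deiodinase that inactivates thyroid hormone, had 5.13%, 25.7%, 43.7% and 5.70% at 72 such positions. The Rasgrf1 promoter had 5.99%, 24.2%, 29.2% and 4.30% at 20 such positions, and over all its own positions the precursor library was at 35.7%, above iPSC-DA neurons at 29.4%. All 3 thus followed the pattern of the Dlk1 start, with a gain in iPSC-DA neurons and mdDA neurons close to iPSCs. Rtl1, a retrotransposon-derived gene of the Dlk1 locus, was methylated throughout, at 89.5%, 97.5%, 92.4% and 98.3% over 11 positions.

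At the partner genes iPSC-DA neurons were called higher than mdDA neurons at 91 of 117 Igf2 positions, 75 of 101 Dio3 positions, 13 of 25 Rasgrf1 promoter positions and 0 of 17 Rtl1 positions, against 17.8% of all positions. mdDA neurons were called above iPSCs at 0 of 125, 0 of 104, 0 of 24 and 0 of 12 positions in the same order, against 9.05% of all positions, and 5, 6, 1 and 4 of them had an unadjusted p under 0.05 in either direction. At 3 of the 12 Rtl1 positions the adjusted p was under 0.05 as well, but the levels differed by less than 20 points. In the H19 stretch, in contrast, mdDA neurons were called above iPSCs, as given above. Whether H19 differs from its partners in this respect was not tested. The part that purity of the sorted cells, the different iPSC line of the precursors or the feeder cells have in these levels was not tested.

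**Figure D4:**
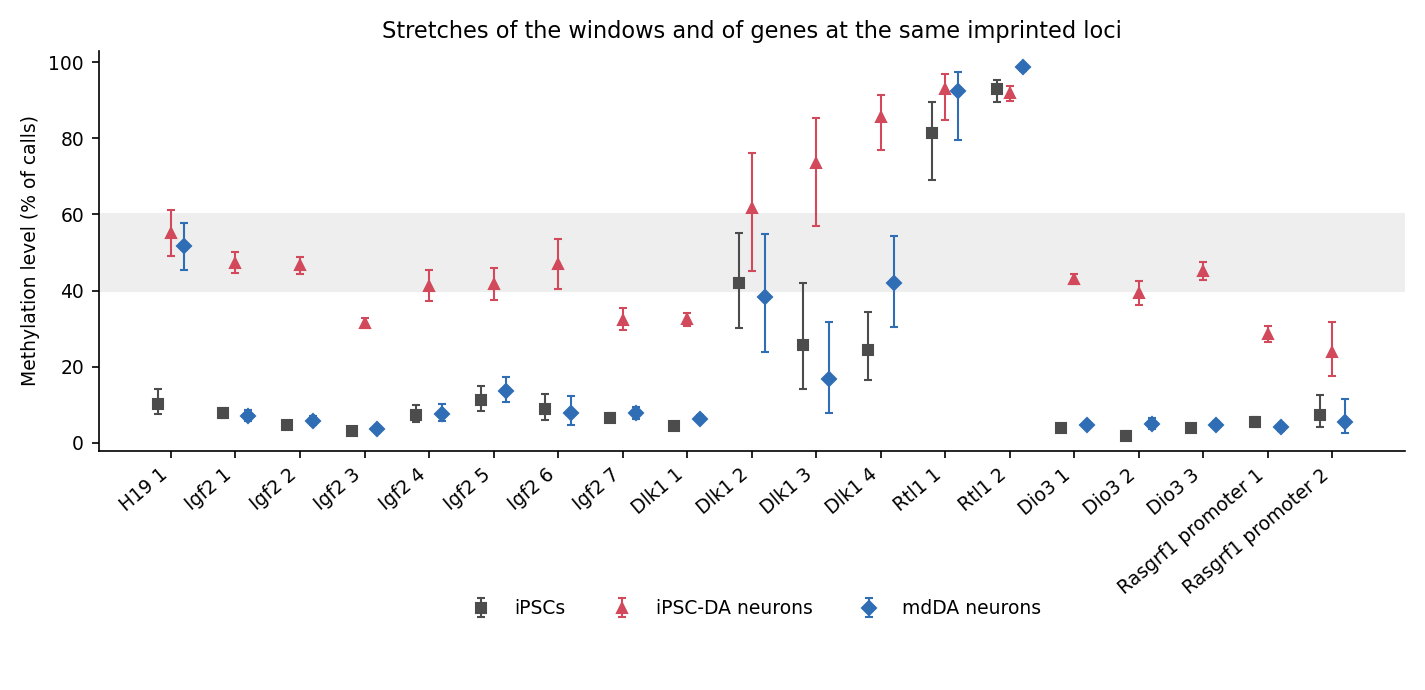
Methylation level in percent of calls for stretches of at least 3 positions with 5 calls in iPSCs, iPSC-DA and mdDA neurons, in the H19 and Dlk1 windows and in the partner genes Igf2, Rtl1, Dio3 and the Rasgrf1 promoter. Bars are Wilson 95% intervals and the grey band marks 40% to 60%. mdDA neurons lie at 51.7% in the H19 stretch and between 3.65% and 13.7% in the Igf2 stretches, where iPSC-DA neurons lie between 31.6% and 47.3%.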

How the data were processed

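RRBS data of 4 libraries were used, 1 for each condition. The authors cut genomic DNA with MspI, converted it with bisulfite, sequenced it, and trimmed, aligned and called the reads with FastQC, Trim Galore 0.3.5 and Bismark 0.10.1 per the submitters' processing notes, and with Bareback per the study's methods. For each position the authors deposited raw counts of calls, methylated and unmethylated in separate columns, beside the percent methylated. Chromosome lengths in the files match mm9, and the position count of a CpG keeps its strands apart. A higher depth narrows the interval of a level, and duplicate reads cannot be removed from such counts.

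Levels are methylated calls over all calls at positions with at least 5 calls. Wilson 95% intervals were computed with Python 3.11.15, numpy 2.4.6, pandas 2.3.3 and numba 0.67.0. Pairs of libraries were compared by a two-sided Fisher's exact test at each position, and over pooled calls of each stretch, with Benjamini-Hochberg adjustment over the whole genome, and were called where the adjusted p was under 0.05 and the levels differed by 20 percentage points or more. The test was checked on simulated data. RefSeq promoters (GRCm38.p6) were placed by the spacing of their CpGs alone, and no coordinate was converted between builds. Single positions were named by most calls over all 4 libraries, by largest difference between iPSC-DA and mdDA neurons with 20 calls in both, or, at H19, Meg3 and the start of Dlk1, after their values had been seen. The windows, partner genes and tests were chosen with earlier results of these data known. Expression arrays of the study were not analysed here. Alternatives changed the minimum of calls, the strand handling, the depth, the threshold and the definition of a stretch.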

Additional observations from a re-analysis of the deposited data

How the results depend on the processing

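No paired analysis was possible because each condition had 1 library. Counts of called positions kept within 1.5 times of the reported ones except in these cases. Precursors against iPSCs fell from 14 called positions to 6 with a minimum of 10 calls and to 4 with the deeper library thinned. iPSC-DA neurons against precursors went from 3 to 7 with neighbouring positions merged, of which 5 were higher and 2 lower, and gave 1 higher and 2 lower with 10 calls, so that the direction there depends on these settings. iPSC-DA against mdDA neurons went from 35 to 21 at a difference of at least 30 points. Of the stretches, precursors against iPSCs went from 2 called to 1 with 10 calls or a gap under 200 bp, to 4 with a minimum of 1 call and to 0 with at least 10 positions. iPSC-DA neurons against precursors turned from 1 lower to 1 higher with 10 calls, and went from 1 to 3 at 10 points and to 0 at 30 points, with a gap under 200 bp or with at least 10 positions. iPSC-DA neurons against iPSCs and against mdDA neurons each went from 3 to 1 with at least 10 positions, where 1 stretch is left. mdDA neurons against iPSCs went from 0 to 1 with a minimum of 1 call and, a choice made after seeing the data, with the precursors left out of the minimum. Windows near 50% went from 1 to 0 in precursors, iPSC-DA and mdDA neurons at positions covered in all 4 libraries, where only H19 and Dlk1 keep a value, and from 1 to 2 in iPSC-DA and mdDA neurons with 30% to 70% taken as near 50%. The cause of changes not explained by fewer positions was not tested.

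Levels of windows and their pieces moved beyond their counting interval for 16 of 20 values at positions covered in all 4 libraries, for 10 of 40 as an unweighted mean of positions, for 2 of 40 with a minimum of 1 call and for 1 of 38 with 10 calls. The H19 level of iPSCs went from 21.0% to 79.0% at the 2 positions covered in all 4 libraries, both inside the gene. Depth limits what can be said of the control regions proper: in the H19 control region, the intergenic region and Rasgrf1, the 3 libraries other than precursors had at most 1 position with 5 calls.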
